A study of Mus musculus with 12 samples.

Results

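The effect of losing serum response factor (SRF) in the stimulated striatum was read from the 3 arrays titled as cocaine-treated mutant animals and the 3 titled as cocaine-treated control animals, 6 of the 12 arrays in the series. The members were chosen by title alone, without any measured value. The cocaine groups had received 25 mg/kg of cocaine, a psychostimulant that blocks dopamine reuptake, by intraperitoneal injection 1 hour before death, per the labels and the series design. The other 6 arrays, 3 mutants and 3 controls titled as saline-treated, served as a comparison. All animals were female littermates between 10 and 15 weeks old that had been housed singly and handled for 5 days, per the labels' protocols. The tissue was the striatum with the nucleus accumbens. The mutated part of Srf, the cells in which it was lost and the mouse strain were not stated in the sources at hand.

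SRF is a transcription factor that binds a short DNA element called the CArG box. With ternary complex factors such as ELK1 as partners, it drives immediate early genes, which neurons switch on within minutes of activity. With myocardin-related factors as partners, it drives genes of actin and of the proteins that bind actin. In the striatum, cocaine raises extracellular dopamine and thereby activates immediate early genes, most strongly in medium spiny neurons that carry the D1 dopamine receptor.

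Each array gave a log2 signal per probe set, made by the authors with GCRMA. A difference of 1 on this scale is a fold of 2. The medians of the 12 arrays lay between 3.75 and 3.78, and arrays of 1 group correlated at 0.986 to 0.993 over the 11102 probe sets tested. The description field of the labels names other groups than the titles do, and the treatment text gives cocaine for every sample, so the groups rest on the titles. Of 14 striatal markers, 10 were tested and read as high signals in all 6 cocaine arrays for the enkephalin precursor Penk, the dopamine-signalling phosphoprotein Ppp1r1b and the GABA-synthesising enzyme Gad1. Penk read 11.62, 11.72 and 11.68 in cocaine-treated controls and 11.72, 11.85 and 11.90 in cocaine-treated mutants. The titles call the arrays biological replicates and number different animals, so p-values measure the spread between animals as far as the labels tell.

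Srf was low in every cocaine-treated mutant array. It read 7.13, 7.20 and 6.97 in controls and 5.33, 5.46 and 5.49 in mutants, so the groups lay far apart. The level was 3.2-fold lower in mutants (log2 difference −1.68, SE 0.0937, adjusted p = 4.84e-07, limma with Benjamini-Hochberg adjustment over all probe sets, as for every adjusted p that follows). In whole tissue, fewer cells that express a gene and less RNA per cell cannot be told apart, and the signal left in mutants shows only that Srf transcript was still measured. Among 7 tested members of a list of SRF and its partner factors, Srf and Mef2c, a transcription factor of the same MADS box family, were lower. The share called was 28.6%, against 4.75% of all genes tested. Mef2c read 8.09, 7.82 and 8.02 in controls and 7.13, 7.44 and 7.16 in mutants (−0.73, SE 0.129, adjusted p = 0.00548), and 3 of its 4 other probe sets were also called lower. The brightest member without a call was Mef2a (0.09, adjusted p = 0.749). The ternary complex factors Elk1 and Elk4 differed by 0.09 and 0.19 and the myocardin-related factor Mrtfa by −0.18, none of them called.

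Among the genes called lower, the promoters of Srf itself, Egr2, Actg1 and Vcl hold CArG boxes upstream of the start, and these are shown because the results below turn on these genes. A CArG box is a pair of C bases, 6 bases that are A or T, and a pair of G bases. Capitals mark it, and the sequences are RefSeq's, build GRCm38.p6.
Srf, chr17:46556205-46556254, minus strand: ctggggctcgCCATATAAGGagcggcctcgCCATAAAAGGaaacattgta
Egr2, chr10:67537484-67537513, plus strand: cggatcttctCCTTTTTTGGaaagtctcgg
Egr2, chr10:67537787-67537816, plus strand: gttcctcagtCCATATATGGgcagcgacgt
Actg1, chr11:120348566-120348595, minus strand: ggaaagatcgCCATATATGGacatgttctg
Vcl, chr14:20929161-20929190, plus strand: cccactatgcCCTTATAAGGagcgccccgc
Srf has a pair of boxes, starting 82 and 62 bases before the transcription start. The first Egr2 box starts 72 bases before an annotated start of the gene and the other 72, 73 and 133 bases before 3 further ones. The Actg1 box starts 90 and the Vcl box 227 bases before the start. The search covered both strands, which for this palindromic form gives the same matches, in windows from 250 bases before to 50 bases after the start. Of 146 genes called lower, 111 had a window, and 7 of these (6.31%) held a CArG box, the other members being Nr2f6, Gstp1 and Rnd3. The share was 2.13% of 141 genes with a window among those called higher, 1.78% of 5445 genes tested with a window, and 1.81% of all 27025 genes in the promoter table. With 1 mismatch allowed, the shares were 33.3%, 22.7%, 19.9% and 23.8%. Among SRF cytoskeletal target genes, 5 of 26 with a window held the exact box (19.2%), and of these only Actg1 and Vcl were called. Of 7 SRF-bound immediate early genes with a window, 1 held it (14.3%). These are matches of letters and not measured binding.

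After cocaine, 465 of 11102 probe sets differed between the genotypes (4.19%), 252 higher (2.27%) and 213 lower (1.92%) in mutants. By gene, with the brightest tested probe set standing for each, these were 316 of 6651 genes (4.75%), 170 higher (2.56%) and 146 lower (2.2%). Most differences were small, with a median size of 0.57 among called probe sets, and 37 genes, 20 higher and 17 lower, passed a log2 difference of 1. Before adjustment, 1906 probe sets had a p under 0.05. Of the called probe sets, 27 had a mean under 4 in cocaine-treated controls and 25 in cocaine-treated mutants. These passed the filter largely through arrays of other groups, so their p-values are descriptive. The 3 mutant and 3 control arrays did not overlap for 26% of all genes tested, so a gap between the groups is not rare by itself. Of the 465 probe sets called, 464 did not overlap, so a lack of overlap adds nothing to a call below. The number called moved with the arrays used: it was 265 without mutant 1, 267 without control 3, 306 without control 2 and 308 without control 1. With all 12 arrays and array weights it was 708.

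The genotype difference after cocaine was set beside that after saline, which uses none of the same arrays. After saline, 331 probe sets were called (2.98%). A total of 200 probe sets were called in the same direction in both, which is 43% of the calls after cocaine and 60.4% of those after saline, and 0 were called in opposite directions. Of the 465 called after cocaine, 435 had the same sign after saline, where their median size was 0.39. The test of the difference between the treatments called 8 probe sets of 7 genes (0.0721% of probe sets), so for the other probe sets called after cocaine a dependence on cocaine was not shown. The 7 genes were Egr2 and Egr4, lower in mutants after cocaine, and Sstr2, Taf1a, Tinf2, Gpr19 and Zfp948, higher. The Gpr19 call was lost in 12 of 20 alternatives, with an adjusted p of up to 0.233.

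**Figure D1:**
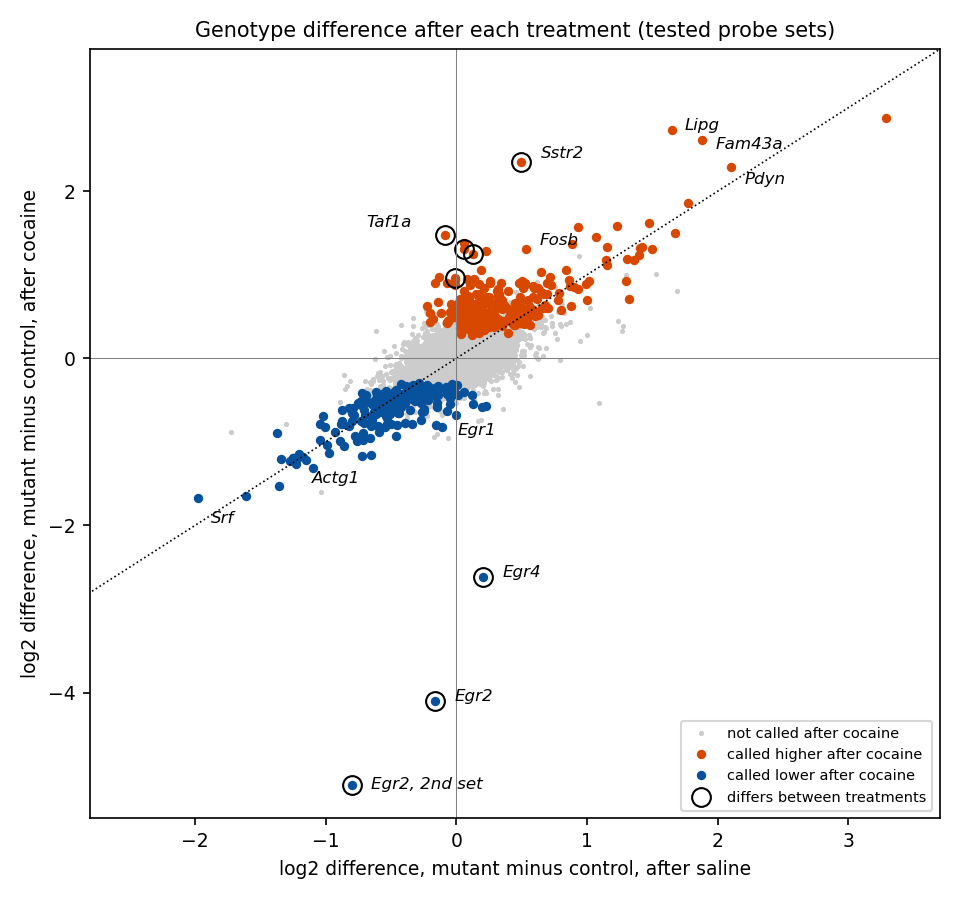
Log2 difference of mutants from controls after saline (horizontal axis) and after cocaine (vertical axis), 1 point for each of 11102 probe sets; the dotted line marks equal differences, orange and blue mark calls after cocaine, and circles mark the 8 probe sets whose difference depended on the treatment. Srf, Actg1 and Pdyn lie near the line, while both Egr2 probe sets and Egr4 lie far below it.

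Egr2, Egr4 and Egr1, zinc finger transcription factors of the immediate early class, were lower in mutants after cocaine. Egr2 read 7.69, 7.88 and 8.04 in controls given cocaine and 3.59, 3.89 and 3.83 in mutants given cocaine. After saline it read 4.04, 4.10 and 3.86 in controls and 3.86, 3.77 and 3.87 in mutants, and within mutants cocaine and saline differed by −0.06 (adjusted p = 0.925). The level after cocaine was lower in mutants (log2 difference −4.10, SE 0.108, adjusted p = 2.03e-10), and the other Egr2 probe set read 8.56, 8.89 and 8.44 against 3.27, 3.91 and 3.39 (−5.11, SE 0.238, adjusted p = 1.29e-07). Egr4 read 4.39, 5.18 and 4.60 in controls and 2.11, 2.12 and 2.12 in mutants (−2.61, SE 0.161, adjusted p = 1.02e-06). All 3 mutant values at Egr4 and at both Egr2 probe sets lay under 4, the floor of the filter on low signals, so no fold is given. Egr4 exceeded 4 in the 3 cocaine-treated controls alone and so passed the filter only through the group where it was high, which means that a tested Egr4 had to differ. At both Egr2 probe sets the 3 cocaine-treated controls by themselves met the filter, so their p-values are descriptive. Egr1 stayed bright in mutants: it read 10.64, 10.82 and 10.68 in controls and 9.97, 9.84 and 9.88 in mutants (−0.82, SE 0.112, adjusted p = 0.00109). Both genotypes had similar Egr1 means after saline (9.37 and 9.26), and within mutants, where 1.92% of probe sets were called between cocaine and saline, Egr1 rose with cocaine by 0.64 (adjusted p = 0.00814). The change of the Egr1 difference with treatment did not pass the test (adjusted p = 0.32).

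Fosb, Junb and Nr4a1, of other immediate early families, were higher in mutants after cocaine. Fosb, an AP-1 subunit, read 4.38, 4.36 and 4.45 in controls and 6.06, 5.51 and 5.55 in mutants (2.48-fold, log2 difference 1.31, SE 0.26, adjusted p = 0.0118). Junb, another AP-1 subunit, read 7.29, 7.57 and 7.45 in controls and 8.10, 8.59 and 8.26 in mutants (0.88, SE 0.218, adjusted p = 0.0418). Nr4a1, an orphan nuclear receptor, read 8.94, 9.23 and 9.05 in controls and 9.70, 9.91 and 9.72 in mutants (0.70, SE 0.137, adjusted p = 0.0107). In all 3 genes every mutant array lay above every control array. Nr4a1 was already higher in mutants after saline, by 1.32 (adjusted p = 0.00019), while Fosb and Junb differed there by 0.54, adjusted p = 0.349 and by 0.73, adjusted p = 0.111. That of Fosb was lost without mutant 1 (adjusted p = 0.0635) and with no filter (0.073), that of Nr4a1 without control 1 (adjusted p = 0.0521) and with no filter (0.0517), and that of Junb without any one of the 6 cocaine arrays, saline control 3 or saline mutant 1 (adjusted p = 0.0505 to 0.138) and with no filter (0.153).

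Fos, another AP-1 subunit, read 8.06, 8.80 and 8.64 in controls and 9.60, 9.68 and 9.25 in mutants. The arrays did not overlap, but Fos varied widely among animals and its difference was not called (1.01, SE 0.394, adjusted p = 0.198); with the 6 cocaine arrays alone the adjusted p was 0.0235. Arc, whose protein governs AMPA receptor traffic, read 7.77, 8.22 and 8.09 in controls and 8.44, 8.74 and 8.06 in mutants, which overlap (0.39, adjusted p = 0.553). The survival gene Mcl1 differed by −0.18 (adjusted p = 0.413), and its other probe sets were not called either. Of the 9 tested members of the list of SRF-bound immediate early genes, 3 were thus lower, 3 higher and 3 without a call, a share of 66.7% called against 4.75% of all genes. The list was compiled from SRF biology with earlier results of these data known, so its share is a description. After saline 2 of its tested members were called higher in mutants and 0 lower, with a list median of 0.54. These were Nr4a1 and either Arc or Mcl1, so a gene without a call after cocaine was called after saline. Egr3, Ier2 and Ccn1 lay below the filter. In the wider list of immediate early transcription factors the same 6 were called of 11 tested, and Jun (−0.58), Klf10 (−0.60), Ier5 (−0.28) and Jund (0.03) were not.

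**Figure D2:**
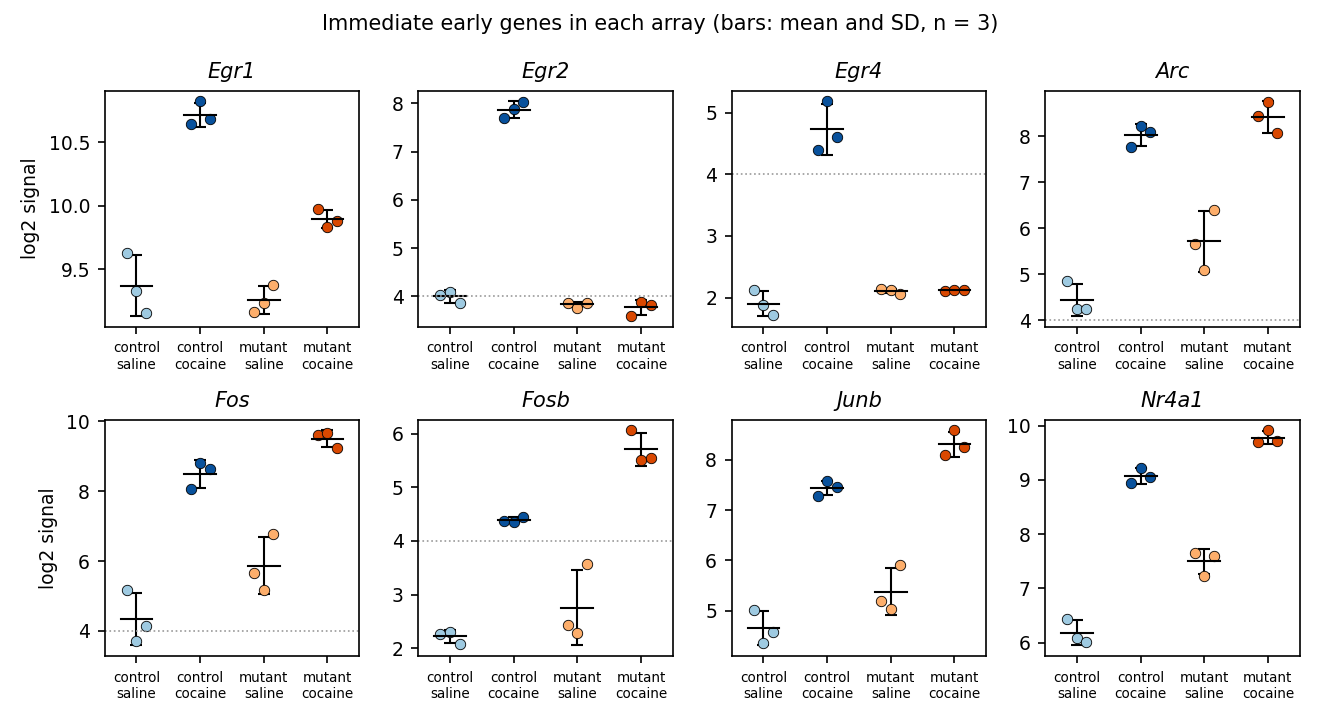
Log2 signal (vertical axis) of 8 immediate early genes in each of the 12 arrays, by group; points are arrays, bars the mean and SD of 3, and the dotted line the filter's floor of 4. In Egr2 and Egr4 the cocaine-treated mutants lie with the saline arrays, while Fosb, Junb and Nr4a1 lay above the cocaine-treated controls.

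Activity-induced effector genes went both ways. Of 12 tested, Tiparp, a mono-ADP-ribosyltransferase, and Plk2, a kinase that acts in synaptic scaling, were higher, and Rgs2 and Inhba were lower. The share called was 33.3%, against 4.75% of all genes. Plk2 read 8.86, 8.96 and 8.95 in controls and 9.40, 9.56 and 9.35 in mutants (0.51, SE 0.0814, adjusted p = 0.00266). Tiparp read a mean of 7.87 in controls and 8.57 in mutants, without overlap (0.69, SE 0.14, adjusted p = 0.0128), with both of its other probe sets called too, and the call of the brightest was lost without control 1 or 3 or mutant 2 (adjusted p = 0.0542 to 0.0575) and with no filter (0.0592). Rgs2, which shortens G protein signalling, read 10.08, 9.90 and 10.09 in controls and 9.45, 9.28 and 9.34 in mutants (−0.67, SE 0.128, adjusted p = 0.00984), and its other probe set was also lower (−0.89, adjusted p = 0.000321). Inhba, which encodes an activin subunit, read 4.63, 4.45 and 4.50 in controls and 3.52, 3.20 and 3.42 in mutants (−1.15, SE 0.201, adjusted p = 0.00534), with the mutant values under the filter's floor of 4. Among the cocaine arrays Inhba exceeded 4 in controls alone, so its p-value is descriptive. The median over the list was 0.13, against −0.02 over all genes tested. Rheb, the brightest member without a call, differed by 0.12.

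Dusp1, a phosphatase that switches off MAP kinases, was the called member among 6 MAPK feedback regulators (16.7%, against 4.75% of all genes). It read 8.92, 9.15 and 9.19 in controls and 9.96, 10.44 and 10.04 in mutants (2.09-fold higher, log2 difference 1.06, SE 0.262, adjusted p = 0.0405), without overlap. The call was lost without any one of the 6 cocaine arrays, saline control 3 or saline mutant 1 (adjusted p = 0.0532 to 0.133), with no filter (0.157) and with an intensity trend (0.0806). Dusp14, the brightest of the rest, differed by 0.16, and Dusp6 by −0.43 (adjusted p = 0.126). Of 7 tested genes bound by the cAMP-responsive factor CREB or encoding its relatives, 3 were higher, with a list median of 0.58. These were Dusp1, Crem and Ppargc1a, a share of 42.9% against 4.75% of all genes. Crem, the gene of a cAMP-responsive modulator, read 4.96, 4.96 and 4.63 in controls and 6.09, 5.77 and 5.40 in mutants (0.90, SE 0.203, adjusted p = 0.0243), and another probe set gave 1.38 (adjusted p = 0.00639). The Crem call was lost without control 1, 2 or 3 or mutant 1 or 2 (adjusted p = 0.0532 to 0.114) and with no filter (0.105). Ppargc1a, a coactivator of mitochondrial genes, read 5.61, 5.34 and 5.45 in controls and 6.35, 6.03 and 6.15 in mutants (0.71, SE 0.107, adjusted p = 0.00202), and 1 of its 4 other probe sets was called, also higher. Sst, which encodes somatostatin, was the brightest without a call (0.07).

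The full cAMP response element to which CREB binds, TGACGTCA, was searched on both strands in the same promoter windows; this search was added after the values had been seen. It was found in 15 of the 141 genes with a window among those called higher (10.6%) and in 0 of the 111 among those called lower. The share was 3.95% of the genes tested and 2.03% of all genes in the promoter table. The windows of 4 genes described here are shown, with the element in capitals, because these genes were among the larger differences upwards.
Sstr2, chr11:113619259-113619286, plus strand: caagctgccgTGACGTCAcgggcggggg
Tinf2, chr14:55681856-55681883, minus strand: ggggacctcgTGACGTCAcagctccctc
Cartpt, chr13:99900778-99900805, minus strand: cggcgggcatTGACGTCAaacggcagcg
Dusp1, chr17:26508598-26508625, minus strand: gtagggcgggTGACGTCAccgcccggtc
The element also stood in the windows of Plk2, Errfi1 and Scg2. A gene without it may hold other forms of the element, or hold it outside the window, and binding was not measured.

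Several genes of actin and of actin-binding proteins were lower in mutants after cocaine. Of 28 tested cytoskeletal genes known as SRF targets, 6 were lower (Flna, Actg1, Tpm1, Actb, Vcl and Wdr1) and 1, Tpm2, was higher. The share called was 25%, against 4.75% of all genes. The median over the list was −0.08, and 21 members had no call. After saline 6 of the list were lower and 1 higher, with a median of −0.14. Actg1, which encodes cytoplasmic gamma-actin, read 11.29, 11.27 and 11.38 in controls and 9.99, 10.13 and 10.02 in mutants (2.41-fold lower, log2 difference −1.27, SE 0.0873, adjusted p = 2.97e-06). Actb, beta-actin, read 11.74, 11.73 and 11.78 in controls and 10.84, 10.88 and 10.87 in mutants (1.85-fold lower, log2 difference −0.89, SE 0.0743, adjusted p = 1.76e-05). For both actins the spread within a group was small beside the gap. The actins of muscle type, Acta1 (−0.28, adjusted p = 0.605) and Acta2 (0.13, adjusted p = 0.811), were dim and not called, and Actc1 and Actg2 lay below the filter.

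Actb was measured by more probe sets. A dimmer one differed by 0.06 (adjusted p = 0.922), while the 3 beta-actin control probe sets of the array, kept out of the tests, differed by −1.09, −1.40 and −1.34. The control probe sets for the 3′ and 5′ ends of beta-actin also measure RNA integrity: the log2 ratio of 3′ to 5′ signal was 0.96 to 1.04 in cocaine-treated controls and 1.23 to 1.37 in cocaine-treated mutants. The same ratio for Gapdh overlapped between the groups, at −0.11 to −0.06 and −0.10 to −0.06. The part of RNA integrity in the actin differences was not tested.

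Flna, a crosslinker of actin filaments, read 5.91, 5.64 and 5.35 in controls and 4.30, 4.61 and 4.06 in mutants (2.48-fold lower, log2 difference −1.31, SE 0.178, adjusted p = 0.00106). Tpm1, a tropomyosin that stabilises filaments, read 7.59, 7.86 and 7.71 in controls and 6.44, 6.64 and 6.53 in mutants (2.27-fold lower, log2 difference −1.18, SE 0.0993, adjusted p = 1.76e-05), while another probe set of it differed by −0.19 without a call. Probe sets of Tpm1 thus disagreed in call though not in sign. Vcl, which links actin to adhesion sites, read 6.66, 6.49 and 6.38 in controls and 5.93, 6.03 and 5.90 in mutants (−0.56, SE 0.0947, adjusted p = 0.0043), and it was the called member among 13 integrin and focal adhesion genes. Wdr1, a cofactor of cofilin in filament disassembly, read 7.17, 7.19 and 7.19 in controls and 6.54, 6.78 and 6.63 in mutants (−0.53, SE 0.1, adjusted p = 0.00903), with both other probe sets lower too. Tpm2, a second tropomyosin, went the other way, from 3.40, 3.79 and 3.72 in controls to 4.14, 4.37 and 4.02 in mutants (0.54, SE 0.125, adjusted p = 0.0281). Its levels lie around the floor of 4, and the call was lost without control 1 or 3 or mutant 1 or 2 (adjusted p = 0.0576 to 0.111), with no filter (0.0849) and with the 6 cocaine arrays alone (0.0542). Among the cocaine arrays Tpm2 exceeded 4 in mutants alone, so its p-value is descriptive.

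Among 27 actin turnover genes, 3 were lower and 0 higher (11.1% called, against 4.75% of all genes), with a median of −0.09. They were Wdr1, the cyclase-associated gene Cap2 (−0.41, SE 0.0796, adjusted p = 0.0109) and Tmsb10, which encodes an actin monomer-binding thymosin (−0.35, SE 0.0889, adjusted p = 0.0431). The Cap2 call was lost without control 1 (adjusted p = 0.0507). That of Tmsb10 was lost without any one of the 6 cocaine arrays or saline mutant 1, 2 or 3 (adjusted p = 0.0516 to 0.168), with no filter (0.0607) and after quantile normalization (0.0789). The brightest members without a call were Tmsb4x (−0.07) here and Cfl1, the filament-severing cofilin, in the target list (−0.23, adjusted p = 0.119). Spectrin Sptbn1 (−0.11) was the brightest of the 18 members without a call among 21 tropomyosins, filamins, actinins and myosins, and Itgav (0.16) among the adhesion genes. Called members made up 14.3% of the former list and 7.69% of the adhesion list, against 4.75% of all genes. None of 23 tubulin, kinesin and neurofilament genes was called by limma, and 2 had an unadjusted p under 0.05.

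**Figure D3:**
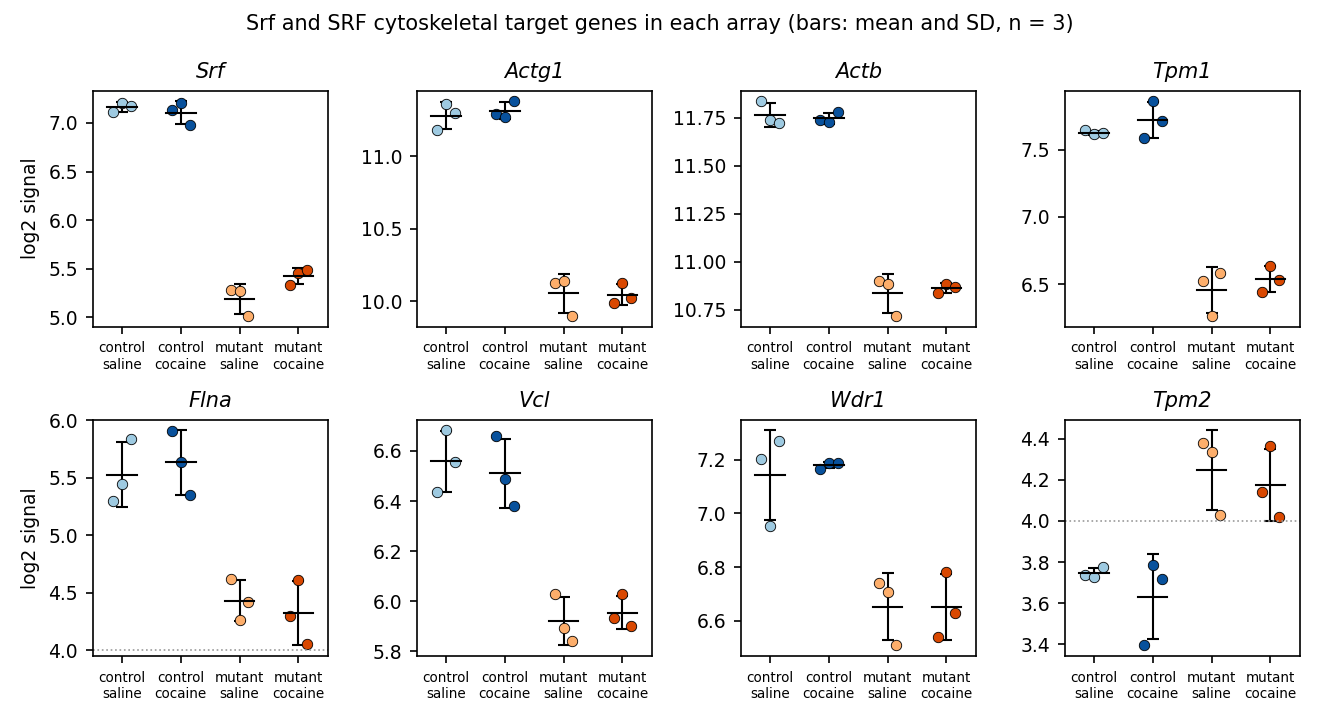
Log2 signal (vertical axis) of Srf and 7 of its cytoskeletal target genes in each of the 12 arrays, by group, with the mean and SD of 3 arrays; the dotted line is the filter's floor of 4. In all genes but Tpm2 both mutant means lie below both control means, and in Tpm2 they lie above.

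Genes of 3 neuropeptide precursors were higher in mutants after cocaine. Pdyn, the precursor of dynorphins, which D1 medium spiny neurons release to act on kappa opioid receptors, read 5.70, 6.07 and 5.80 in controls and 8.24, 8.09 and 8.12 in mutants (4.89-fold higher, log2 difference 2.29, SE 0.123, adjusted p = 4.28e-07). Cartpt, the precursor of CART peptides, read 6.52, 6.90 and 5.80 in controls and 7.77, 7.64 and 7.73 in mutants (2.47-fold higher, log2 difference 1.30, SE 0.278, adjusted p = 0.0179). Pdyn was tight within each group, whereas Cartpt varied by over 1 log2 unit among controls and little among mutants, and its call was lost without control 3 or mutant 1 or 3 (adjusted p = 0.0601 to 0.0707) and with no filter (0.096). Scg2, the precursor of secretoneurin, read 10.02, 10.01 and 10.00 in controls and 10.66, 10.45 and 10.36 in mutants (0.48, SE 0.121, adjusted p = 0.0431), a call lost without any one of the 6 cocaine arrays or saline mutant 2 (adjusted p = 0.0539 to 0.171) and with no filter (0.109). Of 8 tested precursors 3 were higher and 0 lower (37.5% called, against 4.75% of all genes). After saline 3 of the list were higher and 0 lower, with a median of 0.31. Tac1, the substance P precursor, narrowly missed the threshold (0.29, SE 0.0748, adjusted p = 0.0528) and was called in 7 of the 21 alternatives, and the brightest, Penk, differed by 0.15.

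Receptor genes were few among those tested, and 2 of 5 were higher (40% called, against 4.75% of all genes). Sstr2, a somatostatin receptor coupled to inhibitory G proteins, read 4.08, 3.80 and 3.78 in controls and 6.57, 6.20 and 5.94 in mutants (log2 difference 2.35, SE 0.144, adjusted p = 1.02e-06). Of the controls only the first lay above the floor of 4, so no fold is given. The 3 cocaine-treated mutants by themselves met the filter at Sstr2, so its p-value is descriptive. Mutant 1 was the highest array, and the means after saline were 3.21 in controls and 3.71 in mutants, under the floor. Cnr1, the CB1 cannabinoid receptor, read 4.42, 4.26 and 4.44 in controls and 4.98, 4.97 and 5.00 in mutants (0.61, SE 0.122, adjusted p = 0.0127), a call lost without control 2 (adjusted p = 0.057) and with no filter (0.0512). Drd2, the D2 dopamine receptor, differed by 0.21 (adjusted p = 0.309). Gpr19, an orphan receptor outside the list, read 5.95, 5.87 and 5.96 in controls and 7.23, 7.18 and 7.11 in mutants (1.24, SE 0.126, adjusted p = 9.04e-05) and differed by 0.13 after saline (adjusted p = 0.713). Mchr1, a receptor for melanin-concentrating hormone, was lower, with 6.63, 6.43 and 6.36 in controls and 5.15, 5.57 and 5.24 in mutants (−1.15, SE 0.16, adjusted p = 0.00122).

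Among 17 tested genes of medium spiny neuron identity and cAMP signalling, Isl1, a transcription factor of D1 neurons, was called (0.32, SE 0.0803, adjusted p = 0.0449), and that call was lost without control 1, 2 or 3, saline control 2 or 3, mutant 1 or 3 or saline mutant 2 (adjusted p = 0.0565 to 0.166) and with the 6 cocaine arrays alone (0.074). Arpp21, the brightest of the rest, differed by 0.08. The share called in this list was 5.88%, near the 4.75% of all genes. The D1 list had 2 of 5 members higher, Pdyn and Isl1 (40% called, against 4.75% of all genes), with a median of 0.32. The D2 list had 0 of 3 by limma (0 at an unadjusted p under 0.05), with a median of 0.15. Drd1 and Adora2a were not analysed here. Gad1 was higher (0.30, SE 0.0764, adjusted p = 0.0458; other probe set 0.57, adjusted p = 0.000624), the called member among 11 GABA genes, with Abat at 0.20. The share called among GABA genes was 9.09%, against 4.75% of all genes. The call of the brighter Gad1 probe set was lost without control 1, 2 or 3, saline control 2 or 3, mutant 1 or 3 or saline mutant 1, 2 or 3 (adjusted p = 0.0552 to 0.16) and with the 6 cocaine arrays alone (0.0847).

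**Figure D4:**
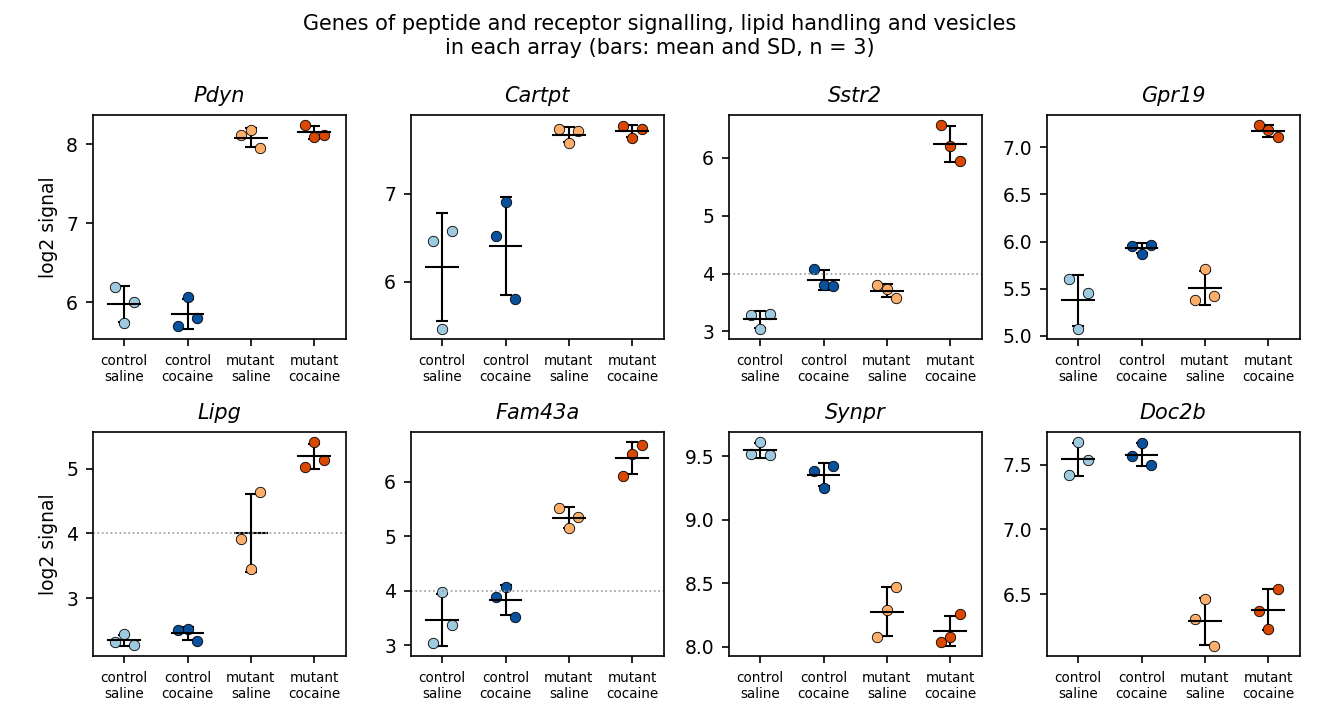
Log2 signal (vertical axis) of 8 genes of peptide and receptor signalling, lipid handling and synaptic vesicles in each of the 12 arrays, by group, with the mean and SD of 3 arrays; the dotted line is the filter's floor of 4. Sstr2 and Gpr19 stand apart in the cocaine-treated mutants, while Pdyn, Synpr and Doc2b differ by genotype in both treatments.

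Genes of the presynapse changed in both directions. Of 25 tested synaptic vesicle genes, Synpr and Doc2b were lower and Rab3b, Syp and Sv2a higher (20% called, against 4.75% of all genes). Synpr, a vesicle membrane protein, read 9.38, 9.25 and 9.43 in controls and 8.04, 8.07 and 8.26 in mutants (2.35-fold lower, log2 difference −1.23, SE 0.103, adjusted p = 1.76e-05). Doc2b, a calcium sensor of spontaneous release, read 7.57, 7.67 and 7.49 in controls and 6.37, 6.23 and 6.54 in mutants (2.29-fold lower, log2 difference −1.20, SE 0.112, adjusted p = 4.76e-05). Neither gene had overlapping groups. Rab3b, a vesicle GTPase, read 6.25, 6.25 and 6.09 in controls and 7.48, 7.47 and 7.35 in mutants (2.35-fold higher, log2 difference 1.23, SE 0.125, adjusted p = 9.04e-05). Syp, synaptophysin, read 8.49, 8.83 and 8.53 in controls and 9.05, 9.33 and 9.29 in mutants (0.60, SE 0.134, adjusted p = 0.0226), a call lost without control 1 or 3 or mutant 2 or 3 (adjusted p = 0.0797 to 0.0924) and with no filter (0.0789). Snap25, the brightest of the list, differed by 0.04.

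Of 20 tested cadherins and synaptic adhesion genes, 5 were lower and 1 higher (30% called, against 4.75% of all genes). The number lower was 2 without control 2 or mutant 1, and 3 without control 3 or mutant 2, with no filter and with a stricter filter. Cdh9, a cadherin, read 6.49, 6.02 and 6.44 in controls and 5.15, 5.08 and 5.08 in mutants (−1.21, SE 0.128, adjusted p = 0.000129). Lrrtm1, a postsynaptic partner of neurexins, read 7.24, 7.14 and 7.20 in controls and 6.05, 5.97 and 5.99 in mutants (−1.19, SE 0.155, adjusted p = 0.000749), and its other probe set differed by −1.53. Cdh11 differed by −0.80 (SE 0.177, adjusted p = 0.0221), a call lost without control 1 or 2 or mutant 1 or 2 (adjusted p = 0.0632 to 0.0907) and with no filter (0.0945), and the remaining members called lower were Cdh4 and Cntn4. Tpbg, a trophoblast glycoprotein also found in neurons, was higher, with 4.34, 4.41 and 4.53 in controls and 6.10, 6.23 and 5.70 in mutants (3-fold, log2 difference 1.59, SE 0.158, adjusted p = 8.95e-05). Cntn1, the brightest without a call, differed by −0.09. Among 18 axon guidance genes Sema7a, a membrane-anchored semaphorin, was higher (0.79, SE 0.118, adjusted p = 0.00202), and Efnb3 differed by 0.04. The share called among axon guidance genes was 5.56%, near that of all genes.

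Calls among genes of ion channels, glutamate receptors and RGS proteins made up 13.6%, 7.69% and 16.7% of the members tested, against 4.75% of all genes. Of 22 voltage-gated channel genes, the potassium channel Kcna1 was higher (0.74, SE 0.167, adjusted p = 0.0255) and the sodium channel subunit Scn3b (−0.53, SE 0.0773, adjusted p = 0.00167) and the AMPA receptor-associated Cacng3 (−0.40, SE 0.1, adjusted p = 0.0431) were lower, with Kcnab1 at 0.15. The Kcna1 call was lost without control 1 or 2 or mutant 1, 2 or 3 (adjusted p = 0.0677 to 0.0936) and with no filter (0.102). That of Cacng3 was lost without control 1, 2 or 3, saline control 2, mutant 1 or 3 or saline mutant 1 or 2 (adjusted p = 0.0524 to 0.159), with no filter (0.0803), with the 6 cocaine arrays alone (0.0552) and after quantile normalization (0.0525). Of 13 glutamate receptor and scaffold genes, Dlg1, which encodes SAP97, was lower (−0.33, SE 0.0848, adjusted p = 0.0467), as was its other probe set (−0.36, adjusted p = 0.0455). The call of the brighter one was lost without any one of the 6 cocaine arrays, saline control 3 or saline mutant 1, 2 or 3 (adjusted p = 0.052 to 0.165), with no filter (0.0551), with the 6 cocaine arrays alone (0.0729) and after 75th percentile scaling (0.0506). Gria2, an AMPA receptor subunit, differed by −0.43 with an adjusted p of 0.0586 and was called in 6 of the 21 alternatives. Of 12 RGS genes, Rgs14 was higher (0.73, SE 0.0952, adjusted p = 0.000749) and Rgs2 lower, with Rgs4 at −0.05.

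Several genes of cholesterol synthesis were higher. Of 16 tested sterol and lipid genes 5 were higher and 0 lower (31.2% called, against 4.75% of all genes). The median was 0.22, against −0.02 over all genes, and 14 of 16 lay above 0. After saline 4 of the list were higher and 0 lower, with a median of 0.31. Dhcr7, which makes the last step to cholesterol, read 5.16, 5.16 and 5.27 in controls and 5.69, 6.13 and 6.08 in mutants (0.77, SE 0.123, adjusted p = 0.00286). Idi1, an isopentenyl diphosphate isomerase, read 6.60, 6.62 and 6.48 in controls and 7.27, 7.25 and 7.17 in mutants (0.66, SE 0.0773, adjusted p = 0.000291). Cyp51, the lanosterol demethylase, read 5.54, 5.72 and 5.85 in controls and 6.48, 6.36 and 6.15 in mutants (0.63, SE 0.105, adjusted p = 0.00387), and Msmo1, a methylsterol oxidase, 8.51, 8.52 and 8.54 in controls and 9.17, 8.99 and 9.14 in mutants (0.58, SE 0.0806, adjusted p = 0.00126). None of these 4 genes had overlapping groups, and the fifth member called was Sc5d. Scd2, a fatty acid desaturase and the brightest member, differed by 0.08.

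Further lists held 0 to 2 calls. The share called was 6.67% in both the chaperone and the chromatin list, near the 4.75% of all genes, and 15.4% in the glucocorticoid list. Dnajb1, a heat-inducible chaperone, was higher among 15 chaperone and stress genes, with 8.21, 8.26 and 7.91 in controls and 9.39, 8.90 and 8.73 in mutants (0.88, SE 0.167, adjusted p = 0.00908). Its other probe set was also higher (0.89, adjusted p = 0.00111), and the call of the brighter one was lost with no filter (0.0535). Hspa8 differed by 0.05. Among 13 glucocorticoid-responsive genes, Errfi1, an inhibitor of EGF receptor signalling (0.41, SE 0.0953, adjusted p = 0.0292), and the sulfotransferase gene Sult1a1 (0.43, SE 0.108, adjusted p = 0.0433) were higher. Klf9 was not called at its brightest probe set (0.20) but was at another (0.34, adjusted p = 0.045), the remaining 4 lying between 0.25 and 0.35 without a call. The Errfi1 call was lost without control 2 or 3 or mutant 1, 2 or 3 (adjusted p = 0.0705 to 0.118) and with no filter (0.0561). That of Sult1a1 was lost without control 1, 2 or 3, saline control 3, mutant 1 or 2 or saline mutant 3 (adjusted p = 0.054 to 0.166), with no filter (0.095) and with an intensity trend (0.0694). Hdac5, a histone deacetylase, was the called member of 15 chromatin genes (0.49, SE 0.111, adjusted p = 0.0245), with Sirt2 at −0.15, and the call was lost without control 1 or 3 or mutant 1, 2 or 3 (adjusted p = 0.0593 to 0.105) and with no filter (0.0664). None of 15 clock genes and none of 24 respiratory chain genes was called by limma, with 2 and 0 at an unadjusted p under 0.05.

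The remaining genes with the largest differences belonged to none of these lists. Lipg, endothelial lipase, read 2.51, 2.53 and 2.35 in controls and 5.03, 5.41 and 5.14 in mutants (2.73, SE 0.218, adjusted p = 1.4e-05). Its other probe sets lay below the filter, with means after cocaine of 2.24 and 2.43 in controls and 2.25 and 3.31 in mutants. Fam43a, a gene of little known function, read 3.89, 4.06 and 3.52 in controls and 6.11, 6.51 and 6.68 in mutants (2.61, SE 0.22, adjusted p = 1.76e-05). Gpx6, a glutathione peroxidase, read 4.49, 4.10 and 4.31 in controls and 6.07, 6.12 and 6.29 in mutants (1.86, SE 0.192, adjusted p = 0.000106). The control levels of Lipg, and 2 of 3 of Fam43a, lay under the floor of 4, and all mutant levels of both genes lay above 5. Parp4 read 3.56, 3.45 and 3.47 in controls and 5.06, 5.03 and 4.75 in mutants (1.45, SE 0.229, adjusted p = 0.00262), also from under the floor. Among the cocaine arrays Lipg and Parp4 exceeded 4 in mutants alone, so their p-values are descriptive. Fam43a exceeded 4 in all cocaine-treated mutants and only barely in a control (4.06), so its p-value is descriptive too. Chmp1b, a subunit of the ESCRT membrane-remodelling complex, read 5.98, 6.27 and 6.30 in controls and 7.49, 7.47 and 7.57 in mutants (1.33, SE 0.108, adjusted p = 1.61e-05), with its other probe set at 1.12.

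Another 4 genes were higher after cocaine with little difference after saline. Taf1a, which takes part in starting ribosomal RNA transcription, read 4.72, 4.67 and 4.70 in controls and 6.41, 6.26 and 5.85 in mutants (1.48, SE 0.122, adjusted p = 1.75e-05; after saline −0.09, adjusted p = 0.813). Tinf2, a telomere protein, read 4.76, 4.78 and 4.90 in controls and 6.21, 6.22 and 5.93 in mutants (1.31, SE 0.115, adjusted p = 2.78e-05; after saline 0.06, adjusted p = 0.875). Zfp948, a zinc finger gene, read 5.86, 5.70 and 5.73 in controls and 6.79, 6.77 and 6.63 in mutants (0.97, SE 0.105, adjusted p = 0.000155; after saline −0.01, adjusted p = 0.978). These 3 genes passed the test of the difference between treatments, a call that Zfp948 lost in 11 of 20 alternatives (adjusted p up to 0.138) and Tinf2 in 1, with no filter (0.0921). Ier3, an immediate early survival gene, read 4.53, 5.20 and 4.67 in controls and 6.53, 6.06 and 5.65 in mutants (1.28, SE 0.209, adjusted p = 0.00324; after saline 0.23, adjusted p = 0.678), but its dependence on treatment did not pass (adjusted p = 0.54). In Sstr2, Taf1a and Ier3 mutant 1 was the highest and mutant 3 the lowest of the mutants.

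On the lower side, Wnt2, a secreted signalling ligand, read 4.38, 4.31 and 4.43 in controls and 2.79, 2.69 and 2.69 in mutants (−1.65, SE 0.0895, adjusted p = 4.28e-07), with mutants under the floor. Gdpd5, a glycerophosphodiesterase, read 5.78, 6.01 and 5.92 in controls and 4.75, 4.67 and 4.69 in mutants (−1.20, SE 0.0946, adjusted p = 1.28e-05). Ddit4l, an inhibitor of mTOR signalling, read 5.68, 5.13 and 5.32 in controls and 4.41, 3.98 and 4.09 in mutants (−1.22, SE 0.176, adjusted p = 0.00159). That the groups did not overlap in these genes follows from the rule that picked them. Abi3bp, an extracellular matrix protein, read 5.12, 4.53 and 4.24 in controls and 3.38, 3.57 and 3.41 in mutants (−1.17, SE 0.224, adjusted p = 0.0093), a call lost with no filter (0.0618). All of them were also called lower after saline, Wnt2 by −1.61, Gdpd5 by −1.34, Ddit4l by −1.15 and Abi3bp by −1.21. Among the cocaine arrays Wnt2 and Abi3bp exceeded 4 in controls alone, so their p-values are descriptive.

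Markers of other cells were compared because dissections can differ in what they hold. None of 16 astrocyte, 12 oligodendrocyte or 10 endothelial and mural markers was called by limma (1, 0 and 0 had an unadjusted p under 0.05), with medians of 0.02, 0.03 and 0.01. The summed signal of the astrocyte list, as log2 of the sum of linear signals, was 13.30 to 13.40 in controls and 13.35 to 13.45 in mutants, and that of the oligodendrocyte list 13.35 to 13.46 and 13.34 to 13.48. The endothelial list summed to 8.99 to 9.54 and 9.12 to 9.31. All 3 ranges overlapped between the genotypes. The list of striatal markers summed to 13.59 to 13.61 in controls and 13.64 to 13.75 in mutants. These do not overlap, but neither did the groups of 26% of all genes tested. Of the 10 striatal markers tested, 7 lay above 0, with a median of 0.11 against −0.02 over all genes. By limma 5 had an unadjusted p under 0.05, as had 1906 of all 11102 probe sets. Gad1 was called, a share of 10% against 4.75% of all genes.

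The microglia list summed to 10.33 to 10.50 in controls and 10.22 to 10.32 in mutants, which do not overlap, as was the case for 26% of single genes. Of its 12 tested members, 11 lay below 0, among them the brightest, Csf1r (−0.13). The list median was −0.13, against −0.02 over all genes tested. Ly86 was called lower (−0.46, SE 0.12, adjusted p = 0.0495) and the lysosomal gene Cd68 was called higher (0.78, SE 0.158, adjusted p = 0.0139). The share called was 16.7%, against 4.75% of all genes. The Cd68 call was lost without mutant 1 (adjusted p = 0.0635) and with no filter (0.067). That of Ly86 was lost without control 1, 2 or 3, saline control 2 or 3, mutant 1 or 3 or saline mutant 2 or 3 (adjusted p = 0.0567 to 0.191), with no filter (0.121), with the 6 cocaine arrays alone (0.0693), after quantile normalization (0.0523) and after 75th percentile scaling (0.0543). Among other interneuron markers 0 of 6 were called by limma, with 0 at an unadjusted p under 0.05. Of the 3 tested markers of cholinergic interneurons Isl1 was called (33.3%, against 4.75% of all genes) and Ecel1 differed by 0.20. The sums of the cholinergic markers were 7.06 to 7.22 in controls and 7.29 to 7.48 in mutants. The part of cell composition in the differences of other genes was not tested.

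Of the cortical excitatory markers, 7 of the 9 on the array lay below the filter; Lamp5 was lower (−0.66, SE 0.109, adjusted p = 0.00335) and Nrgn differed by 0.26. Ttr, which marks choroid plexus, read 2.83, 2.85 and 9.61 in controls and 5.90, 3.05 and 4.75 in mutants, so control 3 held far more of it than any other cocaine array. The septal and thalamic markers that were tested, Zic1 and Rora, were not called by limma, 0 of them having an unadjusted p under 0.05. Of the blood cell markers 7 of 8 on the array lay below the filter, and Ighm, an immunoglobulin heavy chain gene, was higher in mutants, with 4.16, 3.81 and 3.90 in controls and 5.26, 5.41 and 5.70 in mutants (1.51, SE 0.169, adjusted p = 0.000197) and 2.88 at its other tested probe set. A further 9 Ighm probe sets lay below the filter in both genotypes. At the brightest Ighm probe set only control 1 of the cocaine-treated controls exceeded 4, while all cocaine-treated mutants did, so its p-value is descriptive. It was also called higher in mutants after saline (1.68).

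**Figure D5:**
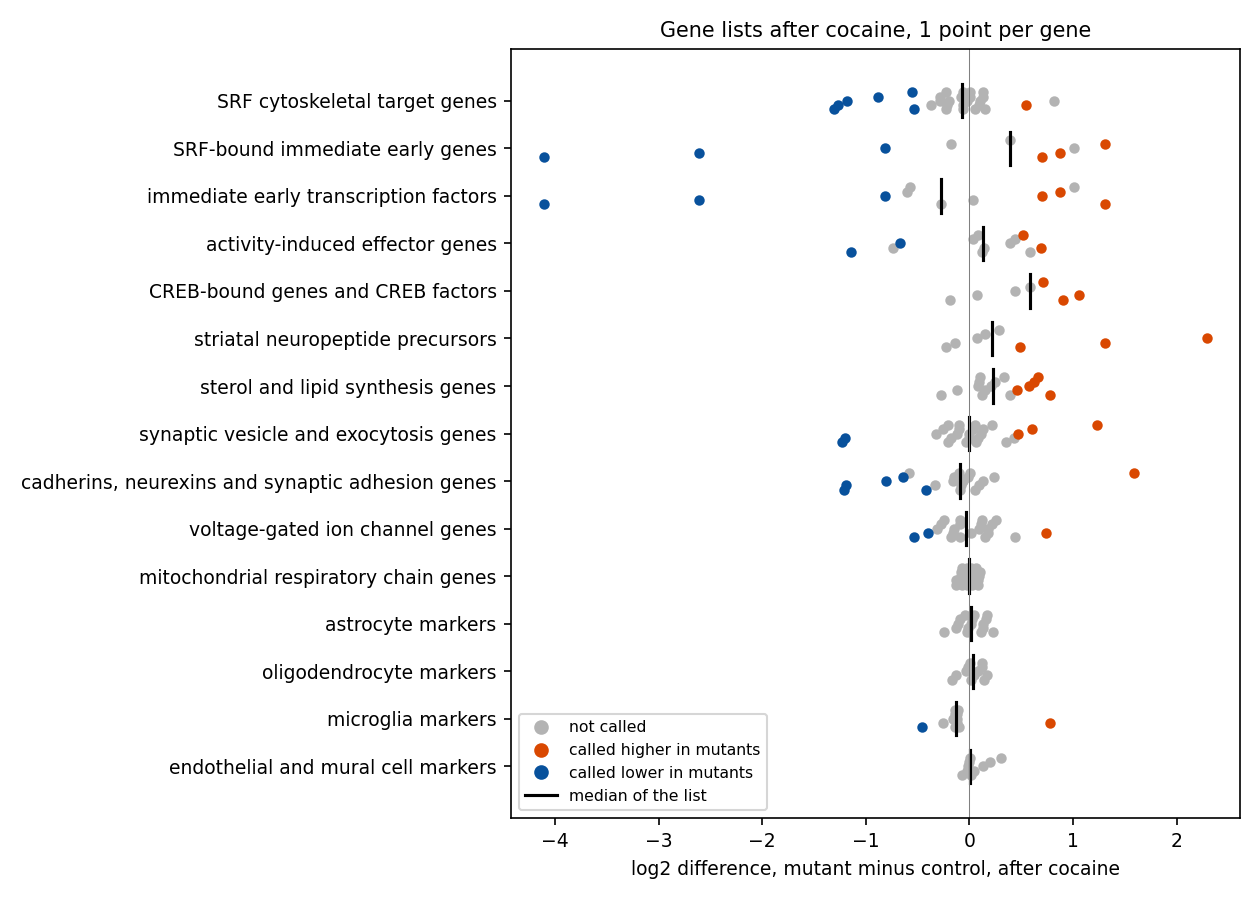
Log2 difference of mutants from controls after cocaine (horizontal axis) for each tested gene of 15 lists, 1 point per gene, with the list median as a black line; orange marks calls higher and blue calls lower in mutants. The immediate early lists spread to both sides, the sterol list leans to the right, and the respiratory chain and glial lists other than microglia stay near 0 without calls.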

How the data were processed

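Total RNA from the striatum was hybridised to 1 Affymetrix array per animal. The deposited log2 signals were made by the authors with GCRMA (R 2.4.1), as the submitters' processing notes say. Its options and the base of the logarithm were not stated in the sources at hand, and base 2 was taken from the range of the values. Groups came from the titles. Probe sets above 4 in at least 3 of 12 arrays were kept (11102), named through GEO's platform annotation, and control probe sets were left out. limma 3.58.1 (R 4.3.3) fitted 4 group means over all 12 arrays, with the genotype difference after cocaine, after saline, and their difference as contrasts. These control probe sets served to read RNA quality. Benjamini-Hochberg adjustment ran over all probe sets, with a call at 0.05. The brightest tested probe set stands for a gene. The text names Srf, the 15 largest non-overlapping calls in each direction, for each list with calls its 4 largest and its brightest uncalled member, every tested actin isoform and SRF-bound immediate early gene, and every gene that differed between treatments. Other members are named beyond that rule, chosen after their values were seen. The members and gene lists were chosen with earlier results of these data known. On simulated data the fit recovered 60% of changes of 0.5 and 95% of changes of 1 after cocaine. The number of arrays limits the precision. Tried alternatives were filters, scalings, moderation, array weights, a replicate block and leaving out each array.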

Additional observations from a re-analysis of the deposited data

Results flagged for a closer look

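In 8 probe sets of 7 genes, the genotype difference after cocaine differed from that after saline by limma's interaction test. It was larger downwards after cocaine at both Egr2 probe sets, by −4.31 (adjusted p = 6.86e-05) and −3.94 (adjusted p = 2.63e-08), and at Egr4, by −2.82 (adjusted p = 7e-05). Egr4 exceeded the floor of 4 in the cocaine-treated controls alone and passed the filter only through them. At both Egr2 probe sets the cocaine-treated controls by themselves met the filter, so the p-values of Egr2 and Egr4 are descriptive. It was larger upwards for Sstr2, by 1.85 (adjusted p = 0.00146), Taf1a, by 1.56 (adjusted p = 0.00146), Tinf2, by 1.25 (adjusted p = 0.00726), Gpr19, by 1.12 (adjusted p = 0.0436), and Zfp948, by 0.98 (adjusted p = 0.0309). The last 2 were near the threshold: of 20 alternatives, Gpr19 missed it in 12, Zfp948 in 11 and Tinf2 in 1, with no filter. The losses of Gpr19 included those without any one of the 6 cocaine arrays, saline control 1 or 3 or saline mutant 1 or 3. Those of Zfp948 included the loss without any one control array of either treatment, mutant 1 or 2 or saline mutant 3. At Sstr2 the 3 cocaine-treated mutants by themselves met the filter, so its p-value is descriptive.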

How the results depend on the processing

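The genes that the naming rule selects were run under the alternatives, and other genes in the text were not. Their 73 probe sets called after cocaine kept their direction in every alternative that tested them (20 or 21), 47 also kept their call, and 26 lost it in at least 1. Of 32 without a call, 5 gained one. The 465 calls became 708 with array weights, 346 of them lower. Leaving out 1 array gave 265 to 537 calls after cocaine (149 to 293 higher, 116 to 244 lower), 219 to 350 after saline (98 to 145 higher, 111 to 205 lower) and 6 to 9 for the dependence on treatment (3 to 6 higher, 3 to 4 lower). With only the groups of the contrast, saline gave 152 calls (66 higher, 86 lower). With no filter, saline gave 96 higher calls, and the dependence on treatment 5 calls, 2 of them higher. With quantile normalisation 58.6% of calls after cocaine were higher, against 54.2%. With no filter the SRF-bound immediate early list had 0 higher calls.

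The replicate numbers did not pair the samples: same-numbered arrays correlated at −0.145 to 0.116 in their deviations, other pairs at −0.101 to 0.16. With the replicate block, 387 probe sets were called after cocaine, 286 after saline and 7 for the dependence on treatment. The block also ended the calls of Junb, Dusp1, Tmsb10, Isl1, Gad1, Cacng3, Dlg1, Hdac5 and Ly86, besides the settings named with them above. With 3 arrays a group, differences near 0.5 were often below what the test can call, and signals near the floor of 4 were the least certain.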
